A study of Mus musculus with 39 samples.

Results

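The growth hormone to IGF1 axis was followed through 8 genes that were chosen by symbol: Ghr, Jak2, Stat5a, Stat5b, Socs2, Cish, Igf1 and Igfals. Each symbol matched 1 row of the count tables, so the axis made up 8 of 46517 rows, and all 8 genes passed the filter on low counts in both tissues. RNA had been sequenced from livers and triceps surae muscles of female mice of a mixed C57BL/6 and 129 background, aged 25 weeks and killed after a 4 h fast. Every mouse, controls included, was Ins1-/-, and the groups differed in Ins2 and in diet. They were Ins2+/- on diet B, Ins2+/+ on diet B, Ins2+/- on diet A and Ins2+/+ on diet A. Diet B supplied 5.56 kcal per g with 58% of its energy as fat, 26% as carbohydrate and 16% as protein. Diet A supplied 4.68 kcal per g with 25% as fat, 55% as carbohydrate and 20% as protein. Of each tissue and group 5 libraries were analysed, but 4 of Ins2+/+ liver on diet B, for 19 livers and 20 muscles in all. Insulin genes are normally expressed in the islets of the pancreas and not in liver or muscle. The question posed by the design was whether a single Ins2 copy, on either diet, went with other transcript levels in these insulin target organs.

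Growth hormone from the pituitary binds its receptor GHR on the hepatocyte, the receptor-bound kinase JAK2 phosphorylates STAT5A and STAT5B, and these enter the nucleus and switch on Igf1, Igfals, Socs2 and Cish. IGF1 is the secreted growth factor of the axis, most of that in blood is made by the liver, and IGFALS holds it there in a ternary complex with IGFBP3. SOCS2 and CISH feed back to damp signalling at the receptor, and insulin is known to raise hepatic growth hormone sensitivity.

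Some libraries stood apart before any comparison was made. Liver libraries held 1289225 to 54249818 counts and muscle libraries 1060469 to 13709576, so 3 counts, the limit that a count of 0 allows, corresponded to 0.0553 to 2.33 CPM in liver and 0.219 to 2.83 CPM in muscle (counting error only). Ins1 had no count in the 19 livers and 14 counts in 2 of 20 muscles. Transcripts of the islet hormones Iapp, Gcg, Sst and Ppy summed to 5 CPM or more in 6 livers and 9 muscles, spread over all groups (2 of 5, 1 of 4, 2 of 5 and 1 of 5 livers in the order of groups above). In the order in which the samples are listed, all livers with these transcripts came before all without them, apart from Ins2+/- B 2. The muscles with them formed an unbroken run, apart from Ins2+/- A 3. Livers Ins2+/- B 2 and B 3 were more alike than any other pair, with 1.13 for chi-square over its degrees of freedom at a thinned depth, against 2.28 for the next pair. At full depth the value was 6.07, beyond counting noise, and they were kept as 2 libraries. Whether they came from separate mice cannot be told from the counts, so n = 5 for that group may count 1 animal more than once. With the pair summed, edgeR changed no call of the 8 genes, but within liver it had called none, so no call could be lost there. DESeq2 and limma-voom were not run on the summed pair. With the pair averaged, the 4 correlations between the 8 genes in liver that passed still did. Muscle Ins2+/- B 2 had 49.7% mitochondrial counts, and muscle Ins2+/- B 4 had 34500 CPM of pancreatic acinar markers. The pituitary hormones Gh and Prl had no count in any library, but the list of 5 pituitary markers summed to 263 CPM in liver Ins2+/+ A 5 and 141 CPM in muscle Ins2+/+ B 5, against at most 2.29 CPM in the other livers and 8.66 CPM in the other muscles. Hepatocyte markers summed to 96800 to 147000 CPM in liver and muscle fibre markers to 47600 to 117000 CPM in muscle, so both tissue labels held. The labels speak of littermates and say no more of how replicates were taken, so p-values here measure the spread between these samples.

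The DNA motif bound by STAT5, TTCNNNGAA, was looked for in the promoter windows of the RefSeq table for GRCm38.p6, which run from 250 bases before to 50 bases after a transcript start. The motif reads the same on both strands. The table held 12 windows for 7 of the 8 genes, with none for Socs2. Of these windows 3, belonging to Cish and Igfals, contained it. Of all 32851 windows in the table, 8.3% contained it. The windows of Ghr, Jak2, Stat5a, Stat5b and Igf1 did not hold these letters. The matches are printed because Cish and Igfals are both read below as targets of the kinase and STAT step; capitals mark the motif, and each line is the + strand, which is the strand of both genes. The Cish line is the pair of motifs that starts at base 1 of the transcript (chr9:107296659-107296678), in an annotated exon. The Igfals lines lie upstream of the alternative starts whose windows held the motif (chr17:24877594-24877655, and chr17:24877981-24878214). They print only bases in no annotated exon, so neither runs up to its start. In them the motif begins 236 and 58 bases before the start. The window of the remaining Igfals start did not hold the motif.
Cish: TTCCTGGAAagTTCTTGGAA
Igfals, first start: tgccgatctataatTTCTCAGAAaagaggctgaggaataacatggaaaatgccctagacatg
Igfals, second start: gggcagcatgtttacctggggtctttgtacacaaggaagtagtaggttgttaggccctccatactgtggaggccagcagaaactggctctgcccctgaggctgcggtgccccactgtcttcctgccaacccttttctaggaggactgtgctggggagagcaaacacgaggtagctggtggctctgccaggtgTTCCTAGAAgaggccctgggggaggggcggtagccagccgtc

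Within liver, none of the 8 genes passed the test for genotype or for diet, and the 4 group means of Igf1 itself lay between 518 and 556 CPM. The estimates nearest to a call lay upstream, in Jak2 for diet and in Ghr for diet within Ins2+/- livers. DESeq2 and limma-voom called these and edgeR did not. How many of all genes DESeq2 and limma-voom called was not counted. In Ins2+/+ livers the Ghr log2 ratio of diet B over diet A was -0.01. The largest spread lay downstream, in Socs2 and Cish, and was between mice of 1 group. Values are counts scaled to library size by TMM (normalised CPM). The test was edgeR's quasi-likelihood test, and p-values were adjusted by the Benjamini-Hochberg method over 11777 genes in liver and 11959 in muscle.

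**Figure D1:**
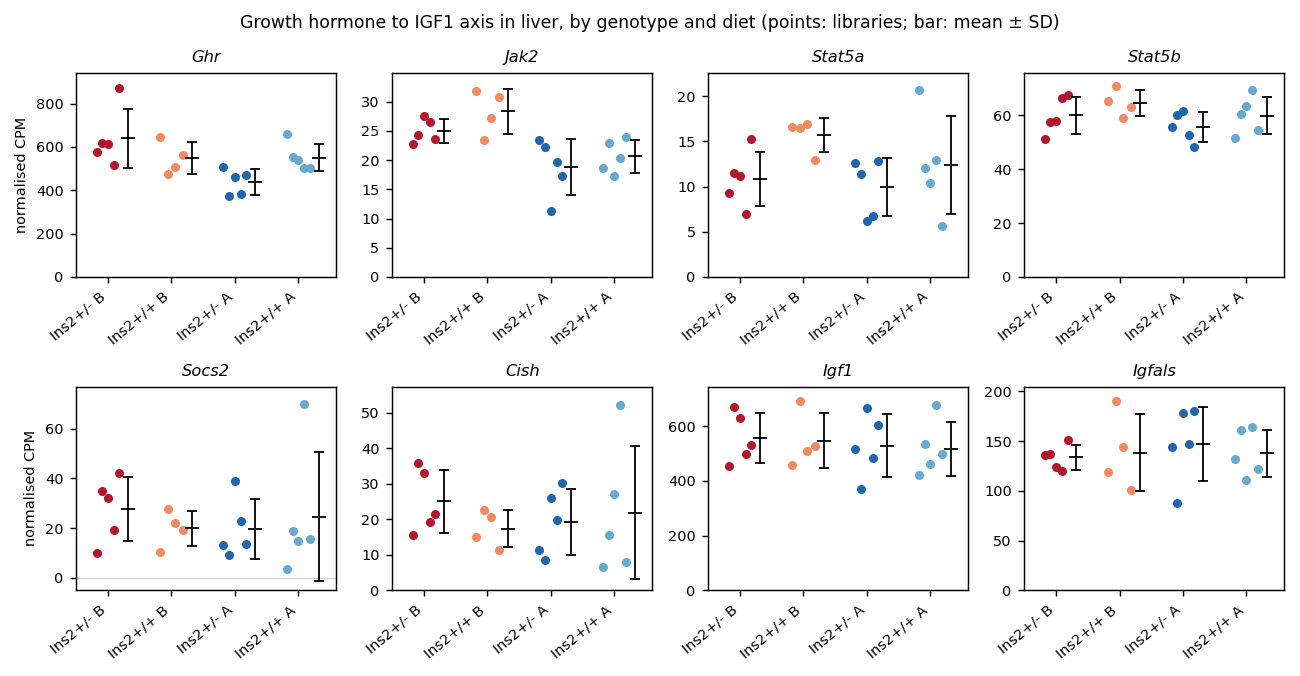
Normalised CPM of the 8 genes in 19 livers. Each panel is 1 gene, each point 1 library, and the bar beside each group is the mean ± SD (n = 5, and 4 for Ins2+/+ on diet B). Ghr in Ins2+/- livers sits at 518 to 870 on diet B and 372 to 508 on diet A, while Socs2 and Cish scatter widely in every group.

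For genotype averaged over diets, edgeR called 0 of the 8 genes in liver, where 0.00849% of all genes were called. DESeq2 and limma-voom also called 0, and 1 of 8 had an unadjusted p under 0.05, against 9.65% of all genes. That gene was Stat5a, with a log2 ratio of Ins2+/- over Ins2+/+ of -0.48 ± 0.19 (SE; adjusted p = 0.43 by edgeR). With the Stat5a and Stat5b counts summed, which are mostly Stat5b, the ratio was -0.16. The median log2 ratio of the 8 was -0.02, against 0 over all genes. On diet A alone 0 of 8 were called (0.00849% of all genes) and 1 of 8, Ghr, had an unadjusted p under 0.05 (10.1% of all genes). On diet B alone 0 of 8 were called (0% of all genes) and 1 of 8, Stat5a, had an unadjusted p under 0.05 (4.25% of all genes), and DESeq2 and limma-voom called 0 on either diet.

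For diet averaged over genotypes, 0 of the 8 were called in liver, where edgeR called 0.238% of all genes. Jak2 and Ghr had an unadjusted p under 0.05, so 2 of 8 did, against 12.8% of all genes. DESeq2 and limma-voom each called 1 of the 8, Jak2. The share of all genes that DESeq2 and limma-voom called was not counted in any comparison. The estimate was above 0 for 7 of the 8, with a median of 0.12, whereas 49.3% of all genes were above 0. Within a genotype, edgeR called 0 of the 8 in Ins2+/- livers (0.0425% of all genes) and 0 in Ins2+/+ livers (0.0425% of all genes). In Ins2+/- livers 2 of 8 had an unadjusted p under 0.05 (12.3% of all genes), and DESeq2 and limma-voom each called Ghr. In Ins2+/+ livers 1 of 8 did (6.27% of all genes), and neither tool called a gene. The interaction of genotype and diet called 0 of 8 by all 3 tools (0% of all genes), with 1 of 8, Ghr, at an unadjusted p under 0.05 (4.8% of all genes).

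Ghr (chr15:3317760-3583492, - strand, GRCm38) encodes the growth hormone receptor. Its normalised CPM in livers on diet B were 575, 620, 615, 518 and 870 in Ins2+/- mice and 647, 475, 509 and 561 in Ins2+/+ mice. On diet A they were 508, 372, 460, 383 and 471 in Ins2+/- mice and 658, 554, 538, 504 and 501 in Ins2+/+ mice. Within Ins2+/- mice, every diet B liver lay above every diet A liver, the nearest at 518 and 508 CPM. The share of all genes separated in this way was not counted. The group means were 640 ± 135 on diet B and 439 ± 58.7 on diet A in Ins2+/- livers (SD, n = 5 each), and 548 ± 74.9 (n = 4) and 551 ± 63.9 (n = 5) in Ins2+/+ livers. The log2 ratio of diet B over diet A was 0.54 ± 0.13 (SE) in Ins2+/- livers (adjusted p = 0.098 by edgeR) and -0.01 ± 0.14 in Ins2+/+ livers (adjusted p = 1). This was the receptor value nearest to a call: DESeq2 gave an adjusted p of 0.012 and limma-voom 0.014, while with livers Ins2+/- B 2 and B 3 summed to 1 library edgeR gave 0.23. The difference between genotypes in the diet ratio was 0.55 ± 0.19 (95% interval 0.16 to 0.95, adjusted p = 0.98 by edgeR), so it did not pass. On diet A, Ins2+/- livers were below the Ins2+/+ mean in 5 of 5 libraries (log2 ratio -0.33 ± 0.13, adjusted p = 0.40 by edgeR), and on diet B the ratio was 0.22 ± 0.14 (adjusted p = 1). Ghr was 562 ± 108 CPM in the 6 livers with islet transcripts and 536 ± 115 in the other 13.

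Jak2 (chr19:29251828-29313080, + strand) encodes the tyrosine kinase bound to the receptor. On diet B its normalised CPM were 22.8, 24.3, 27.6, 26.5 and 23.6 in Ins2+/- livers and 31.9, 23.5, 27.2 and 30.8 in Ins2+/+ livers. On diet A they were 23.5, 22.2, 11.3, 19.7 and 17.3 in Ins2+/- livers and 18.6, 22.9, 17.3, 20.4 and 24 in Ins2+/+ livers. The diet groups overlapped in both genotypes, although all 9 diet B livers exceeded the diet A mean of their genotype. Averaged over genotypes the log2 ratio of diet B over diet A was 0.41 ± 0.10 (SE; 95% interval 0.20 to 0.63, adjusted p = 0.074 by edgeR). DESeq2 called Jak2 with an adjusted p of 0.018 and limma-voom with 0.03. The diet ratio was 0.37 ± 0.14 in Ins2+/- and 0.45 ± 0.15 in Ins2+/+ livers, and the difference between them was -0.08 ± 0.21 (adjusted p = 1 by edgeR).

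Stat5b (chr11:100780731-100850724, - strand) and Stat5a (chr11:100859351-100885169, + strand) encode the transcription factors of the axis and are neighbouring, closely similar copies, so the split of reads between them by kallisto is uncertain. Stat5b had the smallest spread of the 8 genes in liver, with a within-group SD of 0.15 on the log2 scale and a range of 48.2 to 70.8 CPM. Its log2 ratio was -0.10 ± 0.07 for genotype and 0.10 ± 0.07 for diet (SE; adjusted p = 0.68 and 0.59 by edgeR). Stat5a on diet B was at 9.33, 11.5, 11.2, 7.0 and 15.2 CPM in Ins2+/- livers and 16.6, 16.5, 16.9 and 12.9 CPM in Ins2+/+ livers. On diet A it was at 12.6, 11.4, 6.17, 6.71 and 12.8 CPM in Ins2+/- livers and 20.7, 12.1, 10.4, 12.9 and 5.68 CPM in Ins2+/+ livers. All 5 Ins2+/- livers on diet B lay below the Ins2+/+ mean, with overlap of the groups, and the Stat5a genotype log2 ratio on diet B was -0.55 ± 0.25 (SE; adjusted p = 1 by edgeR). With the counts of both copies summed, which are mostly Stat5b, the ratio was -0.19. Stat5a counts were low, from 13 to 620 per liver.

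Socs2 (chr10:95385362-95417180, - strand) encodes a SOCS-box protein that targets the receptor for degradation, and mice without it overgrow. On diet B its normalised CPM were 9.90, 34.8, 32.1, 19.3 and 42.2 in Ins2+/- livers and 10.5, 27.8, 21.9 and 19.4 in Ins2+/+ livers. On diet A they were 13.4, 8.98, 39.1, 23 and 13.6 in Ins2+/- livers and 3.37, 18.8, 14.9, 69.8 and 15.7 in Ins2+/+ livers. The groups overlapped throughout, and the extremes of all 19 livers, 3.37 and 69.8 CPM, were both Ins2+/+ livers on diet A. The log2 ratio was 0.08 ± 0.38 for genotype and 0.12 ± 0.38 for diet (SE; adjusted p = 0.98 and 0.96 by edgeR), with 95% intervals of -0.71 to 0.88 and -0.68 to 0.91.

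Cish (chr9:107296026-107302784, + strand) encodes a related inhibitor and is a textbook target of STAT5. On diet B it was at 15.7, 35.9, 33.1, 19.3 and 21.4 CPM in Ins2+/- livers and 14.9, 22.7, 20.7 and 11.3 CPM in Ins2+/+ livers. On diet A it was at 11.3, 8.57, 26.1, 19.7 and 30.2 CPM in Ins2+/- livers and 6.54, 15.7, 27, 52.2 and 7.86 CPM in Ins2+/+ livers. Its highest and lowest livers were the same libraries as for Socs2. The log2 ratio was 0.13 ± 0.31 for genotype and 0.12 ± 0.31 for diet (SE; adjusted p = 0.94 for both by edgeR).

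Igf1 (chr10:87858265-87937042, + strand) encodes the growth factor. On diet B its normalised CPM were 454, 669, 631, 497 and 531 in Ins2+/- livers and 458, 693, 510 and 527 in Ins2+/+ livers. On diet A they were 515, 369, 667, 483 and 605 in Ins2+/- livers and 420, 534, 460, 676 and 498 in Ins2+/+ livers. The group means were 556 ± 90.7, 547 ± 102, 528 ± 115 and 518 ± 98.1 CPM in the order Ins2+/- B, Ins2+/+ B, Ins2+/- A and Ins2+/+ A (SD, n = 5, 4, 5 and 5), less apart than the libraries of any 1 group. The log2 ratio of Ins2+/- over Ins2+/+ was 0.03 ± 0.11 (SE), with a 95% interval of -0.21 to 0.26, and that of diet B over diet A was 0.08 ± 0.11, with an interval of -0.16 to 0.32 (adjusted p = 0.98 and 0.86 by edgeR). The interaction was at 0 ± 0.23, with an interval of -0.48 to 0.48.

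Igfals (chr17:24865997-24882010, + strand) encodes the acid-labile subunit that carries IGF1 in blood. Its range was 120 to 151 CPM in Ins2+/- and 101 to 190 CPM in Ins2+/+ livers on diet B, while on diet A livers of Ins2+/- mice held 87.3 to 180 CPM and those of Ins2+/+ mice 111 to 164 CPM. All 4 ranges overlapped, and the log2 ratio was 0.02 ± 0.13 for genotype and -0.06 ± 0.13 for diet (SE; adjusted p = 0.99 and 0.91 by edgeR).

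**Figure D2:**
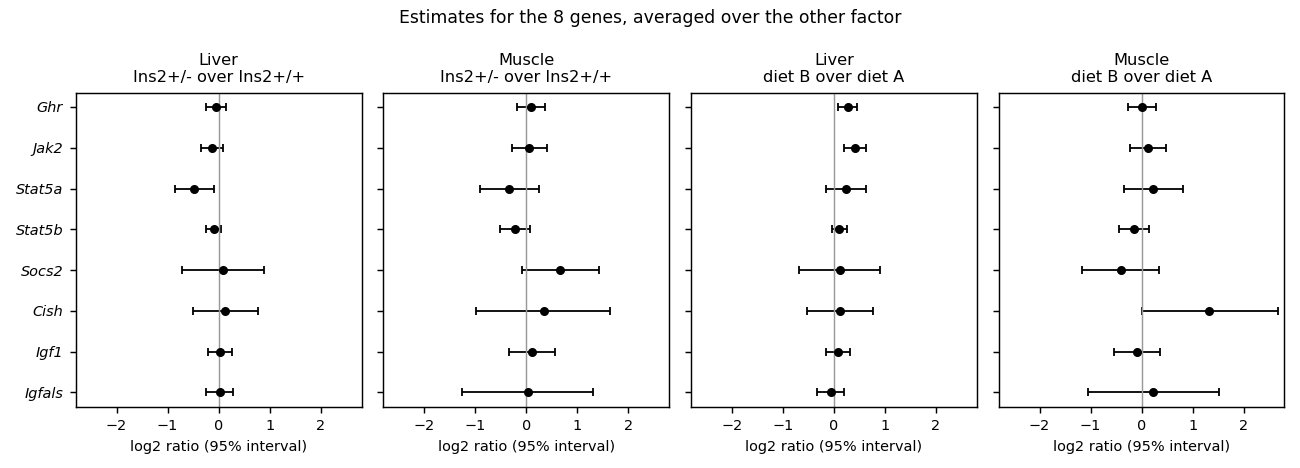
Log2 ratios of the 8 genes with 95% intervals from edgeR, for Ins2+/- over Ins2+/+ and for diet B over diet A, each averaged over the other factor, in liver and muscle. In liver the intervals of Jak2 (0.20 to 0.63) and Ghr (0.07 to 0.46) for diet and of Stat5a (-0.86 to -0.09) for genotype lie off 0; none of the 3 passed adjustment over all genes.

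The spread between mice of 1 group was widest for Socs2 and Cish among the 8 genes in liver. The within-group SD of log2 normalised CPM was 1.03 for Socs2 and 0.82 for Cish, against 0.49 for Stat5a, 0.32 for Igfals, 0.27 for Igf1, 0.26 for Jak2, 0.21 for Ghr and 0.15 for Stat5b. Among the 4558 genes whose mean level lay within 2-fold of that of Socs2, 99.6% had a smaller SD and the median SD was 0.23. For Cish the share was 99.1% of 4608 genes, for Stat5a 91.7% of 4378, for Igfals 90.9% of 1425 and for Igf1 75.8% of 363. The highest Socs2 liver held 20.7 times the level of the lowest, and the ratio was 7.98 for Cish and 1.88 for Igf1. In muscle the SD of Socs2 was 0.94, and 62.4% of 4551 genes of like level had a smaller one.

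Levels of the feedback genes and of Igf1 went together from liver to liver. Of 28 pairs of the 8 genes in liver, 4 passed a permutation test of Pearson's r (100000 permutations, Benjamini-Hochberg adjusted over the 56 relations of both tissues), and of 28 pairs in muscle 0 did, with r between -0.43 and 0.59 there. All 19 livers entered, on log2 normalised CPM. The share of all gene pairs with r this high was not counted. Without the livers that held islet hormone transcripts, none of the 4 passed, as given below.
The pair Socs2 and Igf1 had r = 0.77 (adjusted permutation p = 0.0045) and Spearman's rho = 0.79 (adjusted permutation p = 0.0067). Without the 2 livers farthest from the median of Socs2, r was 0.74. The pair Socs2 and Cish had r = 0.77 (adjusted permutation p = 0.0045) and rho = 0.71 (adjusted permutation p = 0.022), and r = 0.59 without the 2 farthest livers. The pair Cish and Igf1 had r = 0.74 (adjusted permutation p = 0.0069) and rho = 0.69 (adjusted permutation p = 0.022), and r = 0.66 without the 2 farthest. The pair Igf1 and Igfals had r = 0.69 (adjusted permutation p = 0.014) and rho = 0.68 (adjusted permutation p = 0.022), and r = 0.50 without the 2 farthest. Taken as deviations from the group means, r was 0.77, 0.76, 0.74 and 0.73 for the same pairs in that order. Neither Ghr (r with Igf1 within groups -0.017) nor Jak2 (-0.404) followed Igf1 in this way.

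**Figure D3:**
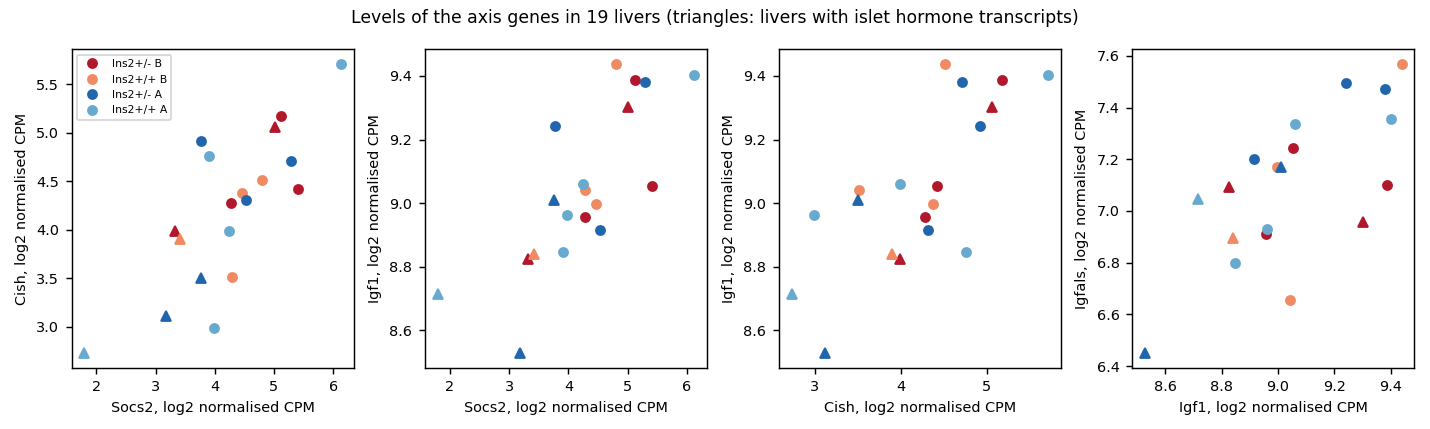
Log2 normalised CPM of pairs of axis genes in 19 livers, 1 point per library, coloured by group; triangles are the 6 livers with islet hormone transcripts of 5 CPM or more. In the first 3 panels the 2 levels move together (r = 0.77, 0.77 and 0.74), and 5 of the 6 triangles lie below every other liver in Socs2, the nearest at 13.4 against 13.6 CPM.

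Socs2, Igf1 and Cish ran lower by rank in the livers with islet hormone transcripts. In the 6 livers that held them Socs2 was at 3.37 to 32.1 CPM (median 10.2), against 13.6 to 69.8 CPM (median 21.9) in the other 13. For Igf1 the values were 369 to 631 CPM (median 456) against 460 to 693 CPM (median 531), and for Cish 6.54 to 33.1 CPM (median 13.1) against 7.86 to 52.2 CPM (median 21.4). For Socs2, 5 of the 6 lay below every one of the 13, and the exception, at 32.1 CPM, was Ins2+/- B 3. The library most like it, Ins2+/- B 2 (Socs2 at 34.8 CPM), was among the 13, with 0.147 CPM of islet hormones against 13 CPM. If the pair came from 1 mouse, that mouse stood on both sides. The relations with islet hormones were not recomputed with the pair averaged. The nearest of the 5, Ins2+/- A 1 at 13.4 CPM, was not clearly apart from Ins2+/- A 5 at 13.6 CPM, which rested on 18 counts. For Igf1 and Cish the ranges overlapped more widely. Across the 19 livers Spearman's rho with the summed islet hormones was -0.73 for Socs2 (adjusted permutation p = 0.014), -0.71 for Igf1 (adjusted permutation p = 0.014), -0.64 for Cish (adjusted permutation p = 0.035) and -0.61 for Igfals (adjusted permutation p = 0.05), over 28 relations with 7 library measures. Pearson's r was -0.64, -0.61, -0.52 and -0.47 (adjusted permutation p = 0.073, 0.073, 0.13 and 0.19), so it passed by rank only for Socs2, Igf1 and Cish and by neither measure for Igfals, and r was -0.60, -0.48, -0.52 and -0.43 without the 2 farthest livers. The other 13 livers held 0 to 1.24 CPM of the summed islet hormones, at or below 3 counts in all but Ins2+/- B 2. Ranks among the 13 thus rest on few counts, and rho mainly sets the 6 livers against the 13. The islet marker list summed to 0.256 to 3770 CPM over the 19 livers, with 5 of 6 markers detected and Ins1 at 0. In the 13 livers without islet transcripts, r was 0.62 for Socs2 and Igf1 (permutation p = 0.024), 0.58 for Socs2 and Cish (permutation p = 0.04), 0.58 for Cish and Igf1 (permutation p = 0.038) and 0.67 for Igf1 and Igfals (permutation p = 0.013); none passed adjustment over the 56 relations. In the 6 with them, r was 0.78, 0.90, 0.83 and 0.55 in the same order (exact permutation p = 0.069, 0.036, 0.058 and 0.21). The relation of Socs2 with stellate cell and fibroblast markers did not pass (r = 0.59, adjusted permutation p = 0.073, and 0.27 without the 2 farthest livers), and the log2 total count had r = 0.18 with both Socs2 and Igf1 (adjusted permutation p = 0.87 for both). Pancreatic acinar markers summed to 17.2 to 186 CPM in the 6 livers with islet transcripts and 5.82 to 30.2 CPM in the other 13. The parts of the islet, acinar and stellate markers, and of the order in which the samples are listed, in the result were not tested.

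The genes most like each axis gene in liver were ranked by Pearson's r of deviations from group means over 19 livers, among 9601 genes with a mean of 5 CPM or more. For Igf1 they were Ces3b (0.892), Nr2c2 (0.851), Serpina3k (0.832), Prok1 (0.826) and Zscan29 (0.826), and Socs2 ranked 15, Cish 31 and Igfals 39. For Socs2 they were Atf4 (0.887), Arhgef10l (0.875), Wsb1 (0.867), Usp12 (0.864) and Gpkow (0.853). For Ghr they were Tstd3 (0.825), Lhpp (0.76), Dntt (0.738), Fads1 (0.725) and Ces2c (0.719). No gene was shared between any of these lists, that of Igf1 and that of Socs2 included. The same livers, their depth and their islet transcripts underlie all of these values. In muscle, over 20 libraries, the gene most like Igf1 was 1110059G10Rik (0.859), that most like Ghr was Mtrex (0.816) and that most like Socs2 was Elp3 (0.818).

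In muscle edgeR called none of the 8 genes for genotype or diet, and the axis was low there apart from Ghr, Jak2 and Stat5b. For genotype averaged over diets 0 of 8 were called (0% of all genes), 0 had an unadjusted p under 0.05 (3.24% of all genes), and DESeq2 and limma-voom called 0. For diet averaged over genotypes 0 of 8 were called (0.00836% of all genes), with 1 of 8, Cish, at an unadjusted p just under 0.05 (3.8% of all genes) and 0 called by DESeq2 and limma-voom. For diet within a genotype 0 of 8 were called in Ins2+/- muscles (0.00836% of all genes) and 0 in Ins2+/+ muscles (0%). For genotype on either diet and for the interaction 0 of 8 were called, as of all genes (0%). In these comparisons 0 of 8 had an unadjusted p under 0.05, against 4.82% of all genes for diet in Ins2+/-, 2.5% for diet in Ins2+/+, 1.67% and 4.54% for genotype on diets A and B, and 3.24% for the interaction, and DESeq2 and limma-voom called 0.

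**Figure D4:**
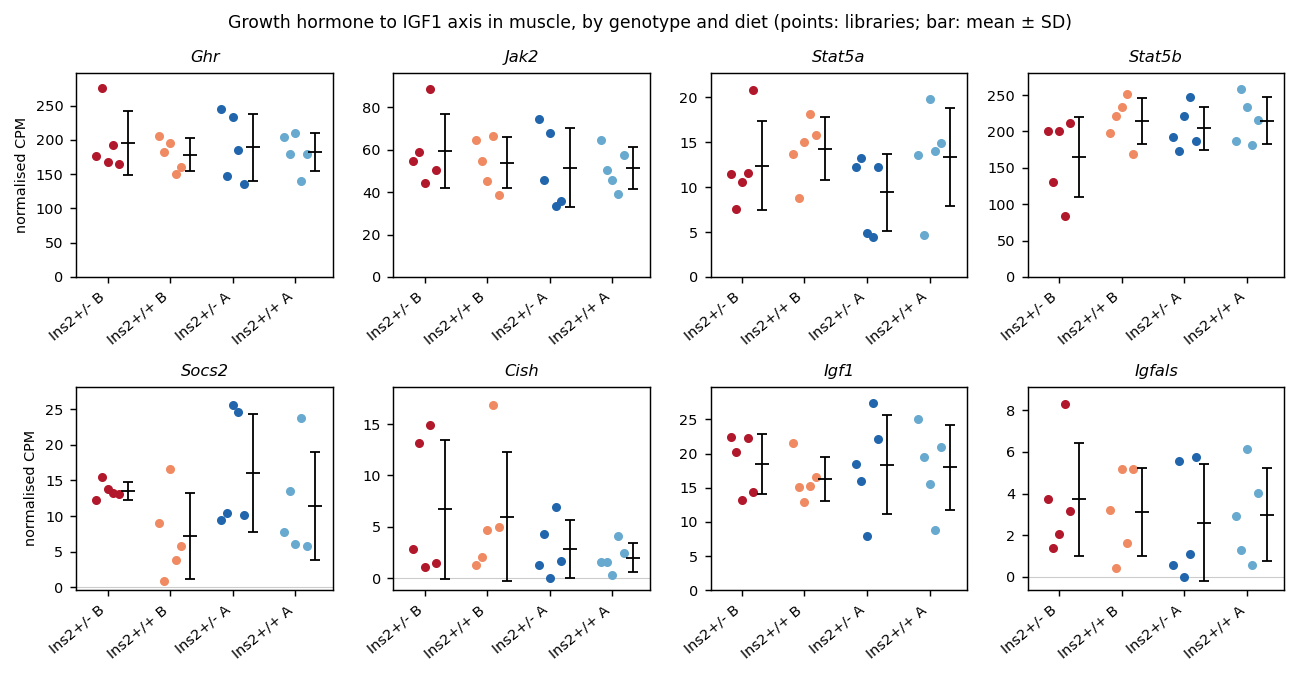
Normalised CPM of the 8 genes in 20 muscles, drawn as for liver (n = 5 libraries per group). Igf1 lies at 7.87 to 27.4 and all 4 groups overlap; the tallest Cish point, 16.9, is a single Ins2+/+ muscle on diet B.

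Ghr in muscle ranged from 165 to 276 CPM in Ins2+/- and 150 to 206 CPM in Ins2+/+ on diet B, and from 136 to 245 CPM in Ins2+/- and 140 to 210 CPM in Ins2+/+ on diet A. The log2 ratio of diet B over diet A was 0.01 ± 0.13 (SE; adjusted p = 1 by edgeR). Igf1 was at 22.4, 20.2, 13.2, 22.3 and 14.3 CPM in Ins2+/- and 21.6, 15.1, 12.9, 15.3 and 16.5 CPM in Ins2+/+ muscles on diet B. On diet A Igf1 was at 18.5, 16.0, 7.87, 27.4 and 22.1 CPM in Ins2+/- and 25.1, 19.5, 15.6, 8.77 and 20.9 CPM in Ins2+/+ muscles. The groups overlapped, and the Igf1 log2 ratio was 0.11 ± 0.22 for genotype and -0.09 ± 0.22 for diet (SE; adjusted p = 1 for both by edgeR).
Socs2 was at 12.2, 15.5, 13.8, 13.2 and 13.1 CPM in Ins2+/- and 9.03, 0.84, 16.6, 3.91 and 5.87 CPM in Ins2+/+ muscles on diet B. On diet A it was at 9.48, 10.5, 25.6, 24.6 and 10.1 CPM in Ins2+/- and 7.75, 13.5, 6.15, 23.7 and 5.79 CPM in Ins2+/+ muscles. On diet B all 5 Ins2+/- muscles lay above the Ins2+/+ mean, and on diet A 2 lay above it and 3 below, with overlap on both diets. The genotype log2 ratio was 0.87 ± 0.52 on diet B and 0.47 ± 0.51 on diet A (SE; adjusted p = 0.94 and 1 by edgeR), and averaged over diets it was 0.67 ± 0.36 (SE; 95% interval -0.08 to 1.42, adjusted p = 1 by edgeR).
Cish rested on 0 to 60 counts per muscle and Igfals on 0 to 78. Cish was at 2.86, 13.2, 1.06, 14.9 and 1.52 CPM in Ins2+/- and 1.31, 2.10, 4.69, 16.9 and 4.97 CPM in Ins2+/+ muscles on diet B, against 0 to 6.98 CPM in Ins2+/- and 0.279 to 4.09 CPM in Ins2+/+ muscles on diet A. The 3 highest Cish muscles were on diet B, and the log2 ratio of diet B over diet A was 1.33 ± 0.65 (SE; adjusted p = 1 by edgeR), and 0.91 without the highest, Ins2+/+ B 4. The other two of these muscles were Ins2+/- B 2 and B 4, those of the high mitochondrial share and the high acinar markers. The same ratio was 0.48 without the 9 muscles with islet transcripts and 0.04 by limma-voom.
Stat5b in muscles on diet B was at 200, 131, 200, 84.4 and 211 CPM in Ins2+/- mice and 198 to 251 CPM in 4 of 5 Ins2+/+ mice, the other being at 169. The low Ins2+/- values were those of the muscle with 49.7% mitochondrial counts and of that with 34500 CPM of acinar markers. The genotype log2 ratio on diet B was -0.37 ± 0.20 (SE; adjusted p = 0.94 by edgeR). Averaged over diets it was -0.22 ± 0.14, and 0.05 ± 0.13 without the 9 muscles with islet transcripts.

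Set against muscle, liver carried the ligand and its carrier. In the fit of all 39 libraries over 13714 genes, 7 of the 8 genes differed between liver and muscle at an adjusted p below 0.05, where 77.8% of all genes did, so the count by itself is near the background. Of the 8, 5 were higher in liver (38% of all genes) and 2 lower (39.8% of all genes). Igfals was higher by 5.39 ± 0.24 (SE) on the log2 scale, or 41.9-fold, and Igf1 by 4.85 ± 0.14, or 28.8-fold (adjusted p = 2.5e-22 and 4.8e-28 by edgeR). Cish was higher by 2.43 ± 0.34, Ghr by 1.49 ± 0.09 and Socs2 by 0.93 ± 0.27 (adjusted p = 4.3e-08, 5.2e-18 and 0.0025 by edgeR). The signalling genes ran the other way: the log2 ratio of liver over muscle was -1.78 ± 0.09 for Stat5b and -1.27 ± 0.11 for Jak2 (adjusted p = 9.2e-20 and 1.3e-13 by edgeR). Stat5a did not pass, at -0.11 ± 0.17 (adjusted p = 0.59 by edgeR). The sum of the Stat5a and Stat5b counts did, at -1.61 ± 0.09. Most of that sum was Stat5b, so it says little of Stat5a (mean 58.7 against 11.8 CPM in liver, and 203 against 12.6 CPM in muscle). In bulk tissue, fewer cells of a type and less RNA per cell cannot be told apart.

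Per kb of exon, the median normalised level in liver was 56.2 CPM for Ghr, 51.1 for Igf1, 42.6 for Igfals, 10.7 for Stat5b, 4.59 for Jak2, 3.06 for Cish, 1.99 for Socs2 and 1.66 for Stat5a. The ranges over livers of Ghr, Igf1 and Igfals overlapped, Stat5b stood below them and above the rest, and the ranges of Jak2, Cish, Socs2 and Stat5a overlapped. In muscle the order was Stat5b at 38.1 CPM per kb, Ghr at 20.7, Jak2 at 10.5, Stat5a at 1.86, Igf1 at 1.85, Socs2 at 1.21, Igfals at 1.01 and Cish at 0.354. Neighbours in that order overlapped, apart from Jak2 and Stat5a. Alb, the most abundant hepatocyte transcript listed, was at 75.3 to 1480 CPM in muscle (median 296) against 74800 to 119000 CPM in liver (median 95700), and the part of liver RNA in the low Igfals and Igf1 levels of muscle was not tested.

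**Figure D5:**
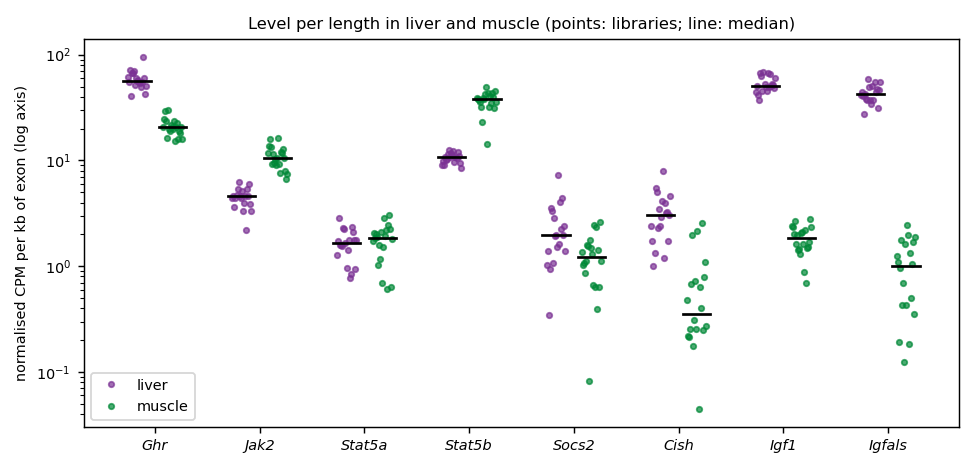
Normalised CPM per kb of exon on a log axis, for the 8 genes in 19 livers and 20 muscles scaled together; points are libraries and lines are medians. Igf1 and Igfals do not overlap between tissues (medians 51.1 and 42.6 in liver, 1.85 and 1.01 in muscle), and the muscle library listed at 0 for Cish and Igfals, Ins2+/- A 3, is not drawn for them but enters the medians.

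Whether genotype or diet acted differently in the tissues was tested directly. The tissue by genotype and the tissue by diet terms each called 0 of 8 genes by edgeR, DESeq2 and limma-voom (0% of all genes for both), and 0 of 8 had an unadjusted p under 0.05 in either (4.93% of all genes for genotype and 5.12% for diet). For Igf1 the liver minus muscle difference in log2 ratio was -0.07 ± 0.25 for genotype and 0.20 ± 0.25 for diet (SE; adjusted p = 1 for both by edgeR).

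Other genes of the pathway were read as lists, each by its counts. In liver, edgeR called 0 members of every list for genotype and for diet averaged over the other factor. The JAK and STAT relatives had 7 of 8 members tested, and their median log2 ratio was 0.12 for genotype and -0.09 for diet, against 0 over all genes for both. The other brakes on growth hormone signalling, which hold SOCS proteins and phosphatases, had 12 of 13 tested and medians of 0.05 and -0.02. Their lowest p for genotype was that of Ptpn1, a tyrosine phosphatase that acts on JAK2 and the insulin receptor, at 0.32 ± 0.09 (SE; adjusted p = 0.31 by edgeR), and for diet that of Socs3, at 0.73 ± 0.23 (adjusted p = 0.17 by edgeR).
The receptor partners had 6 of 9 tested, with medians of 0 and -0.12. Irs2, an insulin receptor substrate, had the lowest p in both: -0.76 ± 0.27 for genotype (adjusted p = 0.39 by edgeR) and 0.92 ± 0.27 for diet (adjusted p = 0.12 by edgeR). The IGF receptors, ligand and carriers had 8 of 11 tested, with medians of -0.06 and 0.11. Igfbp1, a binding protein that limits free IGF1 and is lowered by insulin, was nearest to a call for diet, at 1.62 ± 0.38 (adjusted p = 0.062 by edgeR). Igfbp3, the partner of Igfals in the ternary complex, stood at 0.20 ± 0.14 for diet (adjusted p = 0.58 by edgeR). The receptor gene Igf1r was too low to be tested in liver, with a median of 0.796 CPM, as was Igf2 with 0.619 CPM.

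Neither liver regulators nor genes of sex-biased level in liver, many of which follow the pattern of growth hormone release, gave a call. The 16 regulators that act on or answer the axis were all tested, with medians of 0.07 for genotype and 0.06 for diet. Among them Nr3c1, the glucocorticoid receptor, had the lowest p for both, at -0.29 ± 0.07 for genotype and 0.24 ± 0.07 for diet (SE; adjusted p = 0.24 and 0.14 by edgeR). The 24 female-biased liver genes were all tested, with medians of -0.04 and -0.14; for diet, 9 of 24 had an unadjusted p under 0.05 (12.8% of all genes) and 6 of 24 were above 0 in estimate (49.3% of all genes). Of these Cyp2b10, a drug-metabolising cytochrome, was nearest to a call (-2.09 ± 0.45, adjusted p = 0.053 by edgeR), and Cyp3a41a followed (-0.71 ± 0.18, adjusted p = 0.076 by edgeR). The male-biased list had 22 of 28 tested and medians of 0.19 and -0.20, with Mup3 at -0.58 ± 0.14 for diet (adjusted p = 0.074 by edgeR); for diet, 5 of 22 had an unadjusted p under 0.05 and 5 of 22 were above 0 in estimate. In muscle the lists had 0 calls for both factors as well, with medians between -0.21 and 0.24.
Between tissues the list counts stand against 38% of all genes higher in liver and 39.8% lower. Of the list genes, 6 of the 7 JAK and STAT relatives tested were higher in liver and 1 lower, with Stat2 higher by 2.95 ± 0.23. Of 12 brakes tested, 4 were higher in liver and 4 lower, and Socs7 had a log2 ratio of -2.64 ± 0.09. Of 6 receptor partners, 2 were higher in liver and 4 lower, led by Prlr, the prolactin receptor, at 6.16 ± 0.39. Of 11 IGF receptors, ligand and carriers, 4 were higher and 5 lower in liver. Binding proteins split by tissue: Igfbp2 at 8.01 ± 0.32 and Igfbp4 at 4.75 ± 0.12 were higher in liver, and Igfbp5 at -5.85 ± 0.21 and Igfbp6 at -5.97 ± 0.25 were lower there (SE; adjusted p between 3.6e-30 and 1.1e-22 by edgeR). Of the regulators 11 of 16 were higher in liver and 2 lower, of the female-biased genes 22 of 24 higher and 1 lower, and of the male-biased genes 18 of 21 higher and 3 lower.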

How the data were processed

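Libraries were made from 400 ng of RNA with the TruSeq RNA kit version 2 and read on a HiSeq 2500, per the labels' protocols; the kit does not mark strand, so overlapping genes cannot be told apart. The submitters' processing notes name kallisto 0.42.3, GRCm38 and DESeq2 (version and role not given). The deposited files hold the authors' estimated counts per gene, with no normalization found; they were rounded to whole numbers here. Identifiers were matched to the GENCODE M21 annotation (46005 of 46517, or 98.9%), which also gave exon lengths.

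Each tissue was fitted with edgeR 4.0.16 in R 4.3.3 (TMM scaling, filterByExpr, quasi-likelihood test, 4 groups with 1 shared spread, 15 residual degrees of freedom in liver and 16 in muscle), and all 39 libraries in a further fit with 31. P-values were adjusted over all genes tested and called below 0.05. The SE is the log2 ratio divided by the square root of F. Log2 levels used a prior count of 1. The steps were tested on simulated data. DESeq2 1.42.0, limma-voom (limma 3.58.1), other scalings and filters, a replicate block, an adjusted p below 0.1 and libraries left out were alternatives. Replicate numbers were not taken to pair the samples. All 8 genes were named; other list genes were named where called (up to 4 of lowest adjusted p), otherwise the 2 of lowest p, not all of which are printed. The 8 genes and the lists were chosen with earlier results of these data known.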

Additional observations from a re-analysis of the deposited data

Results flagged for a closer look

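In each of 64 groups of 4 or 5 libraries (8 genes in 8 groups), the highest and lowest library was compared with its neighbour by Dixon's criterion, which chance meets in about 1 group in 20; it was met in 5 of the 64. Socs2 stood at 69.8 CPM in liver Ins2+/+ A 4, above 3.37 to 18.8 CPM in the other 4 livers of that group. Ghr stood at 870 CPM in liver Ins2+/- B 5, above 518 to 620 CPM in the other 4. Stat5a stood at 12.9 CPM in liver Ins2+/+ B 5, below 16.5 to 16.9 CPM in the other 3, from 48 counts. In muscle, Ghr stood at 276 CPM in Ins2+/- B 2, the library with 49.7% mitochondrial counts, above 165 to 192 CPM in the other 4, and Cish stood at 16.9 CPM in Ins2+/+ B 4, above 1.31 to 4.97 CPM, from 52 counts.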

How the results depend on the processing

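For diet averaged over genotypes in liver, the members called were 0 in edgeR at 0.05 and 1, Jak2, under DESeq2, limma-voom and an adjusted p below 0.1. For diet in Ins2+/- livers they were 0 in edgeR at 0.05 and 1, Ghr, under the same 3 alternatives. The cause was not tested. In the fits that left out 1 library each, the adjusted p of Ghr ran from 0.069 to 0.24 and that of Jak2 for diet from 0.056 to 0.15. Stat5b in muscle changed sign without the muscles with islet transcripts, to 0.05 for genotype and 0.03 for diet, and Cish for diet in Ins2+/- muscles went to -0.56 both there and under limma-voom; its tissue by diet term was 0.35 under limma-voom. None of these was called in any fit. A sign change was counted as a reversal where the estimate exceeded its SE. Within 1 SE, 98 of 1516 other estimates, and 175 of 3120 with 1 library left out, changed sign. The 1516 include 136 from the setting with an adjusted p below 0.1, which repeat the main estimates and could not change sign. The number of genes called between tissues stayed at 7, also with the replicate block, and the block left 0 called elsewhere. The labels do not say what samples of equal number share. The deviations of same-numbered samples correlated above 0.1 in 7 of 27 pairs in liver and 11 of 30 in muscle, against 14 of 108 and 8 of 120 differently numbered pairs, so more often but not in every pair. The correlation alternatives were chosen after seeing the data. Socs2 with Cish, Socs2 with Igf1, Cish with Igf1 and Igf1 with Igfals lost their calls without the 6 islet livers (adjusted permutation p = 0.32, 0.30, 0.32 and 0.27 over 13 livers). Igf1 with Igfals also lost it without liver Ins2+/+ B 3 (r = 0.64, adjusted permutation p = 0.055) or Ins2+/- A 2 (r = 0.58, adjusted permutation p = 0.13). In muscle, Cish and Igfals rest on few counts, with 95% intervals of -0.98 to 1.65 and -1.26 to 1.31 for the genotype log2 ratio. Any difference within these intervals is compatible with these libraries.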
